A study of Mus musculus with 6 samples.

Results

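The miR-23/27/24 clusters are a pair of paralogous miRNA loci, and their guide strands were followed here in the liver of *Apcfl/fl* mice with hepatocarcinoma (HCC) and of *Apc+/+* mice. The 5 members were chosen by name on the NanoString mouse panel, as the probes mmu-miR-23a, mmu-miR-23b, mmu-miR-27a, mmu-miR-27b and mmu-miR-24, out of 566 mouse miRNA probes. Both groups were on a C57Bl/6 background. The 3 *Apcfl/fl* mice carried a floxed, hypomorphic *Apc* allele on both chromosomes and had tumours with an active Wnt/β-catenin pathway, and the 3 *Apc+/+* mice had healthy, tumour-free livers. No treatment was named for either group, and age, sex and the tumour content of each liver were not given in the sources used here. RNA came from fresh frozen liver tissue with no cell sorting named, so that fewer cells of a type and less RNA per cell cannot be told apart. The panel holds no mRNA, and the *Apc* genotype could not be checked from it.

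MiRNAs are short RNAs that lower the stability and translation of mRNAs, and they find their targets mainly by the seed, bases 2 to 8 of the mature strand. Each cluster is transcribed as 1 precursor that is cut into a miR-23, a miR-27 and a miR-24 hairpin. The miR-23a cluster is known from endothelial cells, leucocytes and many tumours. The miR-23b cluster has been linked to control of TGF-β signalling through Smad mRNAs in fetal liver cells, and miR-27 to lipid metabolism and adipocyte differentiation. Mature miR-24 is the same molecule from either cluster, so a miR-24 probe reads both loci together.

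In the RefSeq annotation of mouse build GRCm38.p6, Mir23a, Mir27a and Mir24-2 lie within 404 bases on the plus strand at chr8:84208518-84208921, with no protein-coding gene over them. Mir23b, Mir27b and Mir24-1 lie within 792 bases on the plus strand at chr13:63300484-63301275, inside the span of the protein-coding gene Aopep. Mature sequences from RefSeq were at hand for 4 of the 5 members (all but mmu-miR-23b) and are shown, 5′ to 3′ with the seed in capitals, because the members of the 2 loci differ by so few bases. They come from chr8:84208563-84208583 (miR-23a), chr8:84208727-84208747 (miR-27a), chr13:63300760-63300780 (miR-27b), and for miR-24 from both chr8:84208875-84208896 and chr13:63301251-63301272, all on the plus strand. The panel names carry no arm, and each probe was matched to the 3′ arm, which is the guide strand of these hairpins.
miR-23a: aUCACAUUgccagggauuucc
miR-27a: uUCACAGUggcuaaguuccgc
miR-27b: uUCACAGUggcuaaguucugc
miR-24: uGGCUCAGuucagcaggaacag
MiR-27a and miR-27b share their seed and differ at 1 of 21 bases, C19U counted from the 5′ end with the base of miR-27a first. The seeds of miR-23a and miR-27a differ at 1 of 7 bases, U7G with the base of miR-23a first. The seed of miR-24 is unrelated to either.

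**Figure D1:**
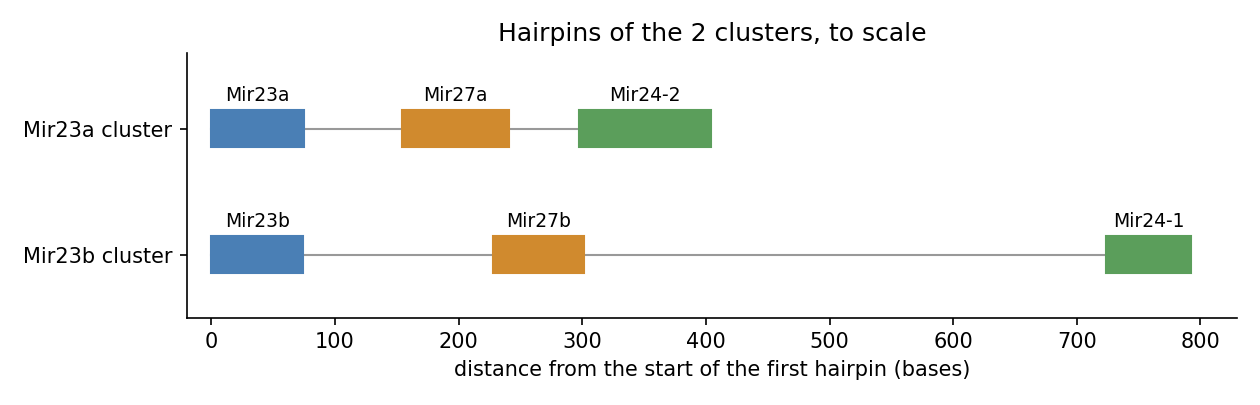
Positions of the 6 hairpins, drawn to scale as the distance in bases from the start of the first hairpin of each cluster. The order miR-23, miR-27, miR-24 is the same at both loci, and the Mir23b cluster is the longer, at 792 against 404 bases.

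The total count on mouse miRNAs was 82942 to 133331 per liver. The authors deposited estimated counts that had not been scaled between livers. They were rounded and compared with edgeR's quasi-likelihood test on TMM-normalized counts, with Benjamini-Hochberg adjustment over the 174 miRNAs that averaged 20 counts or more. Background was read from the 33 viral miRNA probes of the panel, as their mean plus 2 SD in each liver (13.1 to 27.8 counts). The normalized counts below are counts on a common TMM-scaled library size. Probes differ in how well they capture their target, so a count ranks livers for 1 probe and does not rank miRNAs against each other.

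Of the 5 members, 4 were above the background limit in all 6 livers and were tested, and mmu-miR-27b was not above it in any liver. None of the 4 was called as different between the genotypes, which does not show that their levels were equal. An adjusted p-value under 0.05 was reached by 0 of 4, where 0 of 174 miRNAs (0%) had one. An unadjusted p-value under 0.05 was reached by 0 of 4, where 43 of 174 (24.7%) had one. DESeq2 called 29 of the 174 miRNAs and 0 of the 4 members, and limma called 0. Normalized counts of the 2 genotypes overlapped for each of the 4, while they did not overlap for 58 of the 174 miRNAs (33.3%). The point estimates ran from the lowest for miR-23b to the highest for miR-24, and all 4 of the 95% intervals included 0.

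From the Mir23a locus, mmu-miR-23a (MIMAT0000532) was counted 272.67, 282.67 and 260.67 times in healthy *Apc+/+* tissue, set against 316.67, 536.67 and 539.67 times in *Apcfl/fl* tissue, on the deposited scale. After normalization these were 344, 347 and 320.2 against 285, 568 and 354. The *Apc+/+* livers were close together, and the *Apcfl/fl* livers lay on both sides of them, with liver 2 far above the rest. The means were 337 ± 14.7 and 403 ± 148 (SD, n = 3 each), a log2 fold change of 0.25 (standard error 0.29, 95% interval -0.42 to 0.93, edgeR adjusted p = 0.61; two-sided exact permutation test p = 0.7). Leaving out *Apcfl/fl* liver 2 took the log2 fold change to -0.025, and leaving out *Apcfl/fl* liver 1 took it to 0.46. *Apcfl/fl* liver 2 also held the highest count of miR-451, the main miRNA of erythrocytes, with 3593 deposited counts against 495 to 1452 in the other 5 livers, and the part of blood in the miR-23a value was not tested.

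MiR-27a is the middle hairpin of that locus. The deposited counts of mmu-miR-27a (MIMAT0000537) were 198.67, 165.67 and 158.67 for *Apc+/+*, against 228.67, 255.67 and 362.67 for *Apcfl/fl*. The normalized counts, 251, 203 and 195 against 206, 271 and 238, were interleaved between the genotypes. The means of 216 ± 30.1 and 238 ± 32.6 (SD, n = 3 each) gave a log2 fold change of 0.14 (standard error 0.23, 95% interval -0.40 to 0.67, edgeR adjusted p = 0.74; two-sided exact permutation test p = 0.4). In fold terms the interval ran from 0.759 to 1.59. The log2 fold change was 0.27 without *Apc+/+* liver 1, 0.24 without *Apcfl/fl* liver 1, 0.09 without *Apcfl/fl* liver 2 and 0.56 with no filter on low counts.

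From the Mir23b locus, mmu-miR-23b (MIMAT0000125) started from deposited counts of 196, 148 and 132 for *Apc+/+*, against 141, 173 and 213 for *Apcfl/fl*. Normalization gave 247, 182 and 162 against 127, 183 and 139.9. The lowest and the middle *Apcfl/fl* livers lay under all *Apc+/+* livers, and *Apcfl/fl* liver 2 lay level with *Apc+/+* liver 2. The means were 197 ± 44.6 and 149.97 ± 29.5 (SD, n = 3 each), a log2 fold change of -0.39 (standard error 0.28, 95% interval -1.05 to 0.26, edgeR adjusted p = 0.39; two-sided exact permutation test p = 0.3). Dropping *Apc+/+* liver 1 moved this fold change to -0.19, and testing all miRNAs unfiltered moved it to 0.024. In the unfiltered fit the estimates of miR-23a, miR-27a and miR-24 rose as well, to 0.68, 0.56 and 1.22. With TMM and the count filter, miR-23b had a negative and miR-23a a positive estimate, and neither was past the test.

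The other guide strand of that locus, mmu-miR-27b (MIMAT0000126), gave only 10, 16 and 12 deposited counts for *Apc+/+*, and 12, 9 and 12 for *Apcfl/fl*. Every one of these lay under the background limit of its own liver, which stood at 20, 23.3 and 14.3 for *Apc+/+* and at 27.8, 13.1 and 19.2 for *Apcfl/fl*. The mean of 11.8 counts was under the count minimum, so no fold change is given, and this depth could not show whether the genotypes differed. The probe for miR-27a, whose target differs by the single base C19U, read 158.67 to 362.67 counts in the same livers. The capture of miR-27b by its probe was not tested.

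MiR-24, the product of both loci, had the largest estimate of the 4. The deposited counts of mmu-miR-24 (MIMAT0000219) were 101.67, 58.67 and 59.67 for *Apc+/+*, against 125.67, 216.67 and 210.67 for *Apcfl/fl*. On the deposited scale the *Apcfl/fl* livers were the higher 3. After normalization the counts were 128, 72 and 73.3 against 113, 229 and 138, so that *Apc+/+* liver 1 lay above *Apcfl/fl* liver 1. The means were 91.2 ± 32.1 and 160.3 ± 61.3 (SD, n = 3 each), a 1.75-fold difference (log2 fold change 0.81, standard error 0.39, 95% interval -0.11 to 1.72). It was not past the test (edgeR adjusted p = 0.24, unadjusted p = 0.076; two-sided exact permutation test p = 0.2). On the log2 scale it was 0.51 without *Apcfl/fl* liver 2, 1.12 without *Apc+/+* liver 1 and 1.01 without *Apcfl/fl* liver 1.

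**Figure D2:**
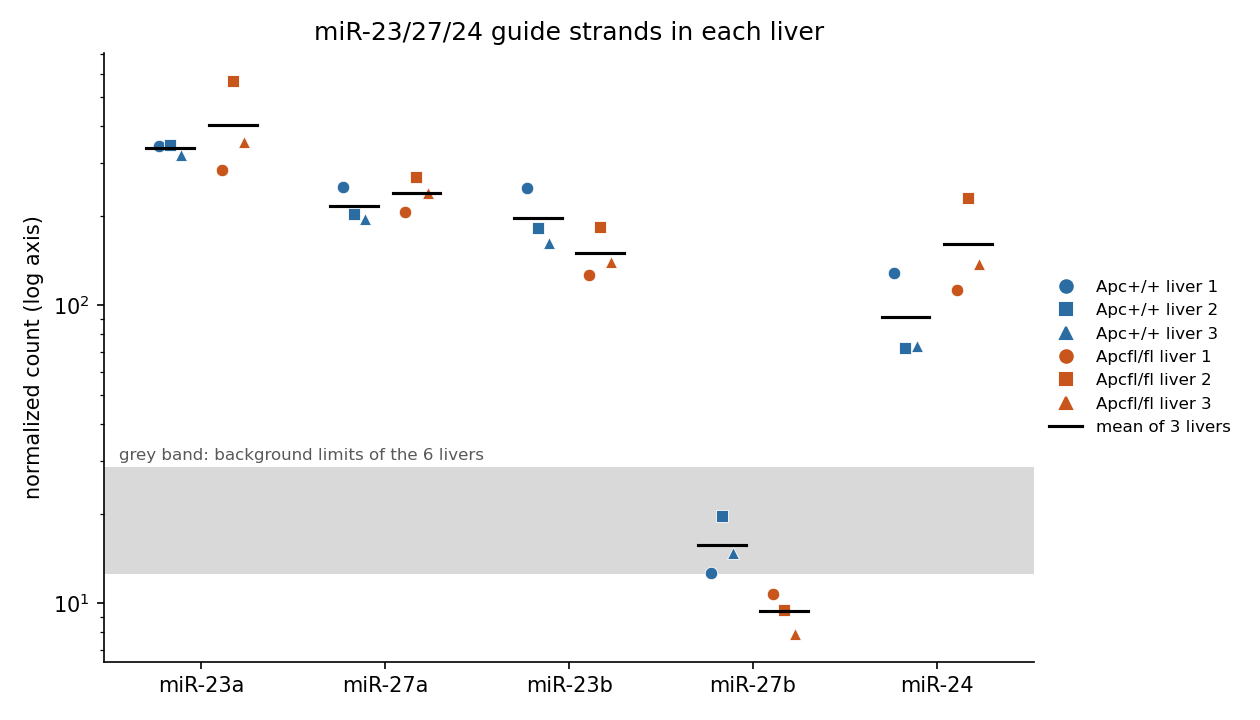
Normalized count of each guide strand in each liver (log axis), with 1 symbol per liver and a bar at the mean of the 3 livers of a genotype. The grey band spans the normalized background limits of the 6 livers, 12.6 to 28.6. The values of the 2 genotypes overlap for miR-23a, miR-27a, miR-23b and miR-24, and every miR-27b value lay under the limit of its own liver.

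The scaling between livers mattered for these values. With the total count in place of TMM the median log2 fold change of all 174 miRNAs moved from 0.01 to 0.45, and the members moved with it, to 0.60 for miR-23a, 0.50 for miR-27a, -0.06 for miR-23b and 1.12 for miR-24. Relative to the median of all miRNAs they were at 0.24, 0.12, -0.41 and 0.79 with TMM and at 0.15, 0.05, -0.51 and 0.66 with the total count. The order of the 4 was therefore the same under both. None of the 4 reached an adjusted p-value under 0.05 in any of 14 alternatives, in which the lowest adjusted p-values were 0.33 for miR-23a, 0.45 for miR-27a, 0.26 for miR-23b and 0.17 for miR-24.

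**Figure D3:**
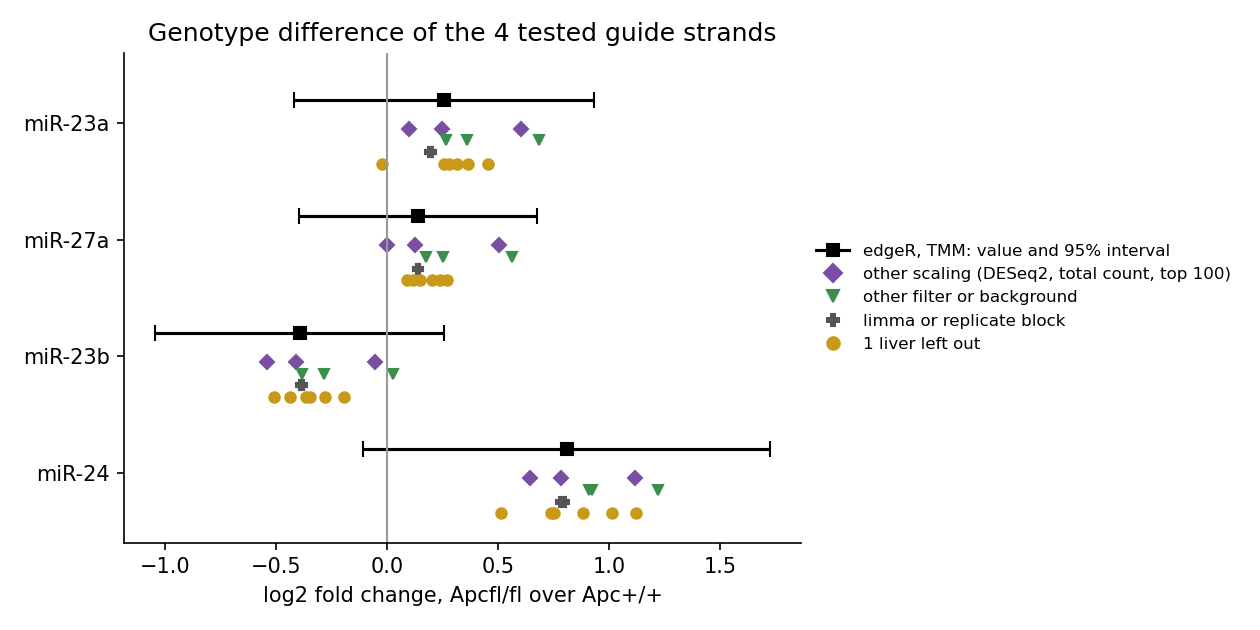
Log2 fold change (*Apcfl/fl* over *Apc+/+*) of the 4 tested guide strands. Black squares and bars give the edgeR value with its 95% interval, and the coloured symbols below give the value under each alternative. All 4 intervals include 0, and miR-24 is the only one whose values all lie above 0 under the 14 alternatives.

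A ratio of 2 miRNAs within the same liver does not depend on the scaling, so the loci were also compared in that way. The level of such a ratio depends on the probes and only its difference between genotypes was read. The first 4 ratios compared paralogues between the loci and neighbours within a locus.

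For miR-23a over miR-23b, the paralogues at the same place in the 2 clusters, the log2 ratio was 0.48, 0.93 and 0.98 for *Apc+/+*, against 1.17, 1.63 and 1.34 for *Apcfl/fl*. All *Apcfl/fl* livers lay above all *Apc+/+* livers. The means were 0.80 ± 0.28 and 1.38 ± 0.24 (SD, n = 3 each), a difference of 0.58 (standard error 0.21) on the log2 scale in favour of miR-23a. The two-sided exact permutation test gave p = 0.1, the smallest that 3 mice against 3 allow, and p = 0.4 after Benjamini-Hochberg adjustment over the 4 ratios.

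Within the Mir23a locus, the log2 ratio of miR-23a to miR-27a was 0.46, 0.77 and 0.72 for *Apc+/+*, against 0.47, 1.07 and 0.57 for *Apcfl/fl*. These overlapped, with a difference of 0.06 (standard error 0.21; two-sided exact permutation test p = 0.8), which was -0.13 without *Apcfl/fl* liver 2 and -0.04 without *Apc+/+* liver 1. The remaining 2 ratios have miR-27b as their denominator, which was under the background limit everywhere, and are given as values only. Their differences were 0.86 (standard error 0.34) for miR-27a over miR-27b and 0.34 (standard error 0.39) for miR-23b over miR-27b, with overlapping genotypes in both.

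The share of the Mir23a locus in the counts of the 4 locus-specific guide strands (miR-23a, miR-27a, miR-23b and miR-27b) summarises the same values. MiR-27b was under the background limit in every liver, so the Mir23b side was mostly the count of miR-23b. The level of the share depends on the probes, and only its difference between genotypes was read. The share was 69.6%, 73.2% and 74.4% for *Apc+/+*, against 78.1%, 81.3% and 80.0% for *Apcfl/fl*. The exact 95% binomial intervals, which cover counting error only and were taken on rounded counts, were 66.0% to 73.1%, 69.6% to 76.7% and 70.7% to 78.0% in *Apc+/+*. They were 74.9% to 81.1%, 78.7% to 83.7% and 77.6% to 82.3% in *Apcfl/fl* liver. All *Apcfl/fl* livers were above all *Apc+/+* livers, at means of 72.4% ± 2.52 and 79.8% ± 1.63 (SD, n = 3 each). The intervals of *Apcfl/fl* liver 1 and *Apc+/+* liver 3 overlapped. As a sum over members this share has no test of its own.

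Further ratios, 8 in all, were added after the data had been seen. For miR-27a over miR-23b the log2 ratio was 0.02, 0.16 and 0.27 for *Apc+/+*, against 0.70, 0.56 and 0.77 for *Apcfl/fl*, a difference of 0.53 (standard error 0.09). For miR-24 over miR-23b it was -0.95, -1.33 and -1.15 for *Apc+/+*, against -0.17, 0.32 and -0.02 for *Apcfl/fl*, a difference of 1.19 (standard error 0.18) or 2.28-fold. Relative to the products of the Mir23a locus miR-24 was also higher in *Apcfl/fl* liver, by 0.61 (standard error 0.26) against miR-23a and by 0.66 (standard error 0.26) against miR-27a. In each of these 4 ratios all livers of 1 genotype lay above those of the other (exact permutation test, two-sided, p = 0.1 each, 0.13 adjusted over the 8 added ratios). Because the ratios were picked with the data known, these p-values are descriptive only. They cannot be set against the adjusted value of the ratios fixed beforehand. Leaving out 1 liver at a time kept the differences at 0.46 to 0.59 for miR-27a over miR-23b and at 1.05 to 1.30 for miR-24 over miR-23b. The ranges were wider for miR-24 over miR-23a (0.44 to 0.86) and over miR-27a (0.47 to 0.83). These 2 ratios were apart by small margins. *Apc+/+* liver 1 lay at -1.42 against -1.36 in *Apcfl/fl* liver 3 for miR-23a, and at -0.97 against -0.86 in *Apcfl/fl* liver 1 for miR-27a.

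Counted together, 5 of the 6 ratios among the 4 tested members did not overlap between the genotypes, all but miR-23a over miR-27a, the neighbours in the Mir23a locus. Those of miR-24 to miR-23a and to miR-27a were apart by small margins only. Of all 15051 ratios among the 174 tested miRNAs, 4115 (27.3%) did not overlap. The 6 ratios are made from 4 miRNAs and are not independent of each other.

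**Figure D4:**
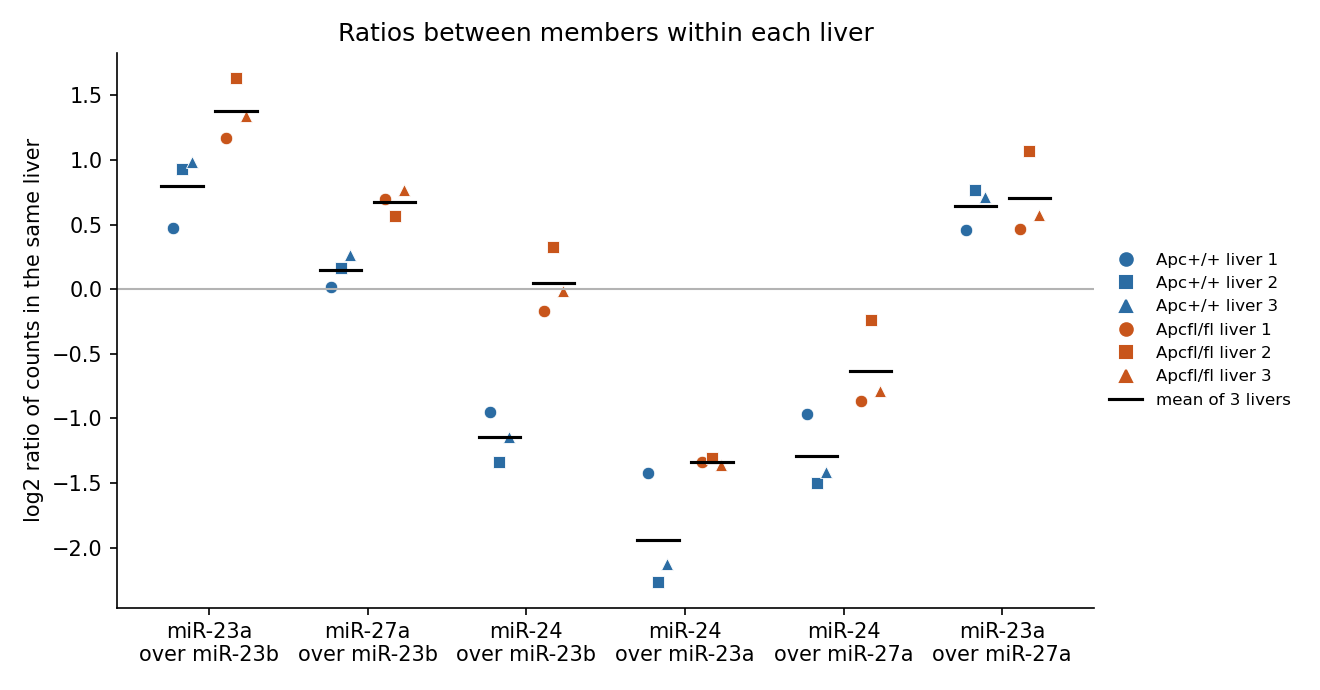
Log2 ratio of the counts of 2 members in the same liver, with 1 symbol per liver and a bar at the mean of the 3 livers of a genotype. The genotypes are apart in the first 5 ratios and overlap for miR-23a over miR-27a, and the widest step is that of miR-24 over miR-23b, from a mean of -1.14 to 0.05.

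Other miRNAs that share the clusters' place or sequence were near background. The panel held 0 probes for the passenger strands of these hairpins under the 10 names searched. Of the mature mouse miRNAs in RefSeq that hold bases 2 to 7 of a member within their own first 8 bases, 2 were on the panel, both sharing UCACAG with miR-27. One was mmu-miR-128 (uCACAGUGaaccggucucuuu, with the seed in capitals), a neuronal miRNA whose seed is that of miR-27 moved by 1 base. Its counts of 26.33, 20.33 and 11.33 for *Apc+/+* and 32.33, 30.33 and 19.33 for *Apcfl/fl* were above the limit in 1 of 3 and 3 of 3 livers, with a log2 fold change of 0.04 (95% interval -1.29 to 1.36, edgeR adjusted p = 0.97). The other, mmu-miR-673-5p, had 1 to 7 counts and was above the limit in no liver. MiR-181c, which is encoded near the Mir23a cluster, read 9.67, 12.67 and 15.67 for *Apc+/+*, against 12.67, 1.67 and 10.67 for *Apcfl/fl*, above the limit in *Apc+/+* liver 3 only. The shared probe for miR-181b and miR-181d had 1.67 to 15.67 counts and was above the limit in no liver.

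The members are made by several cell types of the liver, and markers of these cells are given beside them. Over all 174 tested miRNAs, 88 had a log2 fold change above 0 and 86 below. The hepatocyte markers (miR-122, miR-192, miR-194, miR-101a and miR-802) had log2 fold changes below 0 in 5 of 5, with 0 called and a median of -0.80 beside 0.01 over all miRNAs. Their summed normalized count was 24830 to 39774 in *Apc+/+* and 8254 to 14054 in *Apcfl/fl* liver, with all 5 above the background limit in every liver. MiR-122 gave most of this sum, with means of 29867 in *Apc+/+* and 9157 in *Apcfl/fl* liver. The log2 fold changes were -1.71 for miR-122, -0.39 for miR-192, -0.52 for miR-194, -0.80 for miR-101a and -1.33 for miR-802. The mesenchymal markers (miR-143, miR-145, both arms of miR-199a and miR-214) had 4 of 5 tested, 4 of them below 0 with 0 called, a median of -0.92, and sums of 894 to 1318 against 322 to 725. The 2 strands of miR-126, the endothelial miRNA, had log2 fold changes of -0.23 and -0.46 (edgeR adjusted p = 0.46 and 0.23), with sums of 3585 to 3807 against 2764 to 3552.

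Of the blood cell markers (miR-451, miR-144, miR-486, miR-223, miR-150 and both arms of miR-142) 6 of 7 were tested, 5 of them above 0, with a median of 0.45 and 0 called. Over all tested miRNAs 88 of 174 were above 0. The sums of the blood markers were 1180 to 1642 in *Apc+/+* and 1038 to 4867 in *Apcfl/fl* liver, and miR-142-5p stood at the floor of 1 in every liver. The highest sum was that of *Apcfl/fl* liver 2, where miR-451 alone gave 3806 normalized counts. MiR-223, of granulocytes and macrophages, read 52, 60 and 62 deposited counts for *Apc+/+*, against 135, 147 and 459 for *Apcfl/fl*, a log2 fold change of 1.43 (edgeR adjusted p = 0.072). The other tested blood markers all overlapped between genotypes. Their log2 fold changes were 0.12 for miR-142-3p, -0.11 for miR-150, 1.18 for miR-451, 0.37 for miR-144 and 0.53 for miR-486. The epithelial markers (miR-200a, miR-200b, miR-200c, miR-141 and miR-429) had sums of 73.6 to 142 against 72.3 to 213, with 3 of 5 tested, and miR-200c and miR-141 were above the limit in no liver. The part of these cells in the levels of the members was not tested.

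Because the miR-23a cluster is prominent in endothelium, the members were also set against miR-126-3p in the same liver, among the ratios added after the data had been seen. The log2 ratio of miR-23a was -3.27, -3.23 and -3.26 for *Apc+/+*, against -3.12, -2.18 and -3.17 for *Apcfl/fl*. The *Apcfl/fl* livers were all higher, livers 1 and 3 by a small margin and liver 2 by a wide one, and the difference of 0.43 (standard error 0.32) became 0.11 without liver 2. In *Apcfl/fl* liver 1 the normalized counts of both miR-23a (285) and miR-126-3p (2475) were the lowest of all livers. The ratio of miR-24 went from a mean of -5.19 ± 0.44 to -4.15 ± 0.58 (SD, n = 3 each), a difference of 1.04 (standard error 0.42), again without overlap. The ratios of miR-27a (difference 0.38, standard error 0.17) and miR-23b (difference -0.15, standard error 0.26) overlapped between genotypes. Without *Apcfl/fl* liver 2 these differences were 0.24 and -0.35, and without *Apc+/+* liver 1 that of miR-23b was 0.0048. So 2 of the 4 members lay above in all *Apcfl/fl* livers relative to miR-126-3p, beside 37 of the 173 other tested miRNAs (21.4%).

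The miRNAs whose normalized log2 levels were most like each member over the 6 livers are given as a description. For miR-23a they were miR-376a (Pearson r = 0.94), let-7b (0.93) and miR-451 (0.91). MiR-376a had a mean of 1.24 normalized counts in *Apc+/+* liver, under the limit. It stood at the floor in every liver but *Apcfl/fl* liver 2, with 179 normalized counts, so its correlation rests on that liver. For miR-27a they were miR-361 (0.98), let-7c (0.93) and miR-450a-5p (0.92), and for miR-24 miR-33 (0.93), miR-1902 (0.93) and miR-136 (0.89). Of these, miR-450a-5p (means of 23.6 in *Apc+/+* and 24.3 in *Apcfl/fl* liver) and miR-33 (17.8 and 23.3) lay near the background limits. MiR-136 read 1.23 normalized counts in *Apc+/+* liver 3. For miR-23b they were let-7f (0.91), miR-802 (0.89) and miR-101b (0.88), and the latter 3 had log2 fold changes of -0.37, -1.33 and -0.60. The lists of the 4 members had no miRNA in common. *Apcfl/fl* liver 2 also held the highest normalized counts of let-7b, miR-451, miR-1902 and miR-136. It read 2117 for let-7b (1031 to 1363.5 in the other livers) and 3806 for miR-451 (600 to 1070). For miR-1902 it read 302 (32.3 to 116) and for miR-136 288 (1.23 to 61.9). How far these correlations rest on that liver was not tested. The 6 points share library, depth and genotype, and with 174 miRNAs to choose from such values carry no test.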

How the data were processed

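Livers of 3 mice per genotype had been counted on a NanoString mouse miRNA panel, and were grouped by the genotype and number in the sample titles. The authors deposited estimated counts per probe, not whole numbers and not scaled between livers; a background step, the software and a genome build were not given in the sources used here. Within a probe, values over the floor have the same decimals, as if a constant of its own had been subtracted, which would also move the ratios. Of 3594 values, 446 stood at the floor, 1, and 0 value columns lacked a sample. Viral probes stayed out of library sizes.

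Rounded counts were compared with edgeR 4.0.16 in R 4.3.3 (quasi-likelihood test, TMM, mean count of at least 20, Benjamini-Hochberg over all 174 miRNAs tested, genotype as the only term). Standard errors are the fold change over the root of F. Permutation tests used normalized log2 counts with a prior count of 2, or log2 ratios of deposited counts. Replicate pairs of 1 genotype had a chi-square of 17.2 to 89.1 per degree of freedom, and none was treated as a duplicate. The procedure was run on simulated counts with larger changes than those estimated for the members. Its power for smaller changes was not tested. The alternatives were DESeq2 1.42.0, limma 3.58.1, the total count, scaling on the 100 miRNAs of highest abundance, no filter, a count minimum of 60, viral background subtraction (mean viral count per liver), a block for the replicate number, and leaving out 1 liver at a time.

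Members, cell type lists and seed relatives were chosen with earlier results of these data known, and miR-673-5p was found by the sequence search. Named miRNAs were the members, these lists and, for each member, the 3 miRNAs with the highest correlation.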

Additional observations from a re-analysis of the deposited data

How the results depend on the processing

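The log2 fold change of miR-24 was positive in all 14 alternatives, and that of each other tested member changed sign in 1 of them. MiR-27a was at -0.00088 when scaled on the 100 miRNAs of highest abundance, miR-23b at 0.024 with no filter (miR-23a 0.68, miR-27a 0.56 and miR-24 1.22 in that fit), and miR-23a between -0.025 (without *Apcfl/fl* replicate 2) and 0.46 when 1 liver was left out. The log2 ratio of miR-23a to miR-27a then differed by -0.13 (without *Apcfl/fl* replicate 2) to 0.17. The cause was not tested.

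By edgeR as reported 0 miRNAs were called at an adjusted p-value under 0.05. The calls became 9 lower and 20 higher under DESeq2, 1 and 16 when scaled on total count, and 6 and 1 when scaled on the top 100. They were 6 and 12 under the count minimum of 60, and 7 and 12 after viral background subtraction. Leaving out 1 liver gave 0 to 8 lower calls and 0 to 11 higher calls, the most of each without *Apcfl/fl* replicate 3. No member was called in any of these fits.

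Mice of the same number did not deviate together (correlations -0.06, -0.06 and 0.12). A replicate block gave 3 lower and 4 higher calls and put the members at 0.20 (miR-23a), 0.14 (miR-27a), -0.39 (miR-23b) and 0.80 (miR-24), none of them called.

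Signal over background limits miR-27b, which stayed under the viral probe limit in every liver, and 3 mice against 3 cannot give a permutation p under 0.1.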
